A study of Mus musculus with 4 samples.

Results

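Neurexins, neuroligins and leucine-rich repeat transmembrane proteins (LRRTMs) join the presynaptic and the postsynaptic side of a synapse. Their RNA was followed here through 9 genes, Nrxn2, Nrxn3, Nlgn1, Nlgn2, Nlgn3, Lrrtm1, Lrrtm2, Lrrtm3 and Lrrtm4, chosen by name from the 55421 genes that each count file lists. All 9 were found by their gene identifiers and all 9 passed the expression filter. The study asked what the growth factor FGF2 does to gene expression in cultured prefrontal cortex (PFC) cells. Its mouse part, analysed here, used wild-type (WT) C57BL/6 mice at postnatal day 0 (P0). The dissociated PFC cells of all groups were kept for 10 days in neurobasal medium with B27 supplement, and total RNA was sequenced. The libraries comprised 2 from cultures given FGF2 at 5 ng/mL and 2 from cultures given no FGF2, numbered replicates 1 and 2 in each group. The methods of the study name biological replicates only for some human samples and call those of the others technical, in a passage that lists human cultures alone. The labels of the mouse libraries do not say which kind they are. If the passage covers them, n = 2 here counts technical replicates. Every SD, SE and p-value is therefore read as the spread between libraries and not as that between separate cultures or animals. The cultures hold neurons and glia together, and in bulk RNA fewer cells of a type and less RNA per cell cannot be told apart.

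Neurexins are presynaptic adhesion proteins. Each neurexin gene makes long and short forms from separate promoters and many splice variants. Neuroligins and LRRTMs sit in the postsynaptic membrane and bind neurexins across the cleft. Neuroligin 1 is found mainly at excitatory synapses, neuroligin 2 mainly at inhibitory synapses and neuroligin 3 at both, whereas LRRTMs act at excitatory synapses. Astrocytes and oligodendrocyte precursors also express several of these genes, so they are not markers of neurons alone.

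The counts on genes totalled between 9166432 and 10799886 per library. A gene with no count could be present at up to 3 counts, which was 0.278 to 0.327 CPM (counts scaled to a fixed library total) depending on the library, a limit that covers counting error only. The member with the fewest counts in a library was Lrrtm3 with 115, so no member was near that limit. Levels are CPM after TMM scaling, which adjusts library totals for composition, and are given as mean ± SD (n = 2). Fold changes are FGF2 over no FGF2 on the log2 scale with their standard errors (SE), from the quasi-likelihood test of edgeR over 17144 genes, with Benjamini-Hochberg adjusted p-values called below 0.05.

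With FGF2, 5 of the 9 genes fell, 2 rose and 2 did not pass the test. The genes that fell were both neurexins, Nlgn2, Nlgn3 and Lrrtm1. The genes that rose were Lrrtm2 and Nlgn1. Thus the neuroligins and the LRRTMs each held members of both directions. Of all genes tested, 40.5% were called, 20.7% as higher and 19.9% as lower. Among the 10836 genes with a mean of at least 10 CPM, a level that all 9 members reached, 51.0% were called, 25.1% as higher and 26.0% as lower. The median log2 fold change was -0.21 over the members and -0.01 over the genes with a mean of at least 10 CPM. For all 9 members the libraries with FGF2 did not overlap those without, 3 above and 6 below, and this held for 67.1% of all genes tested. DESeq2, the tool of the study, called 4 members (Nrxn2, Nrxn3, Nlgn2 and Lrrtm2), where 23.2% of the genes with an adjusted p-value were called.

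**Figure D1:**
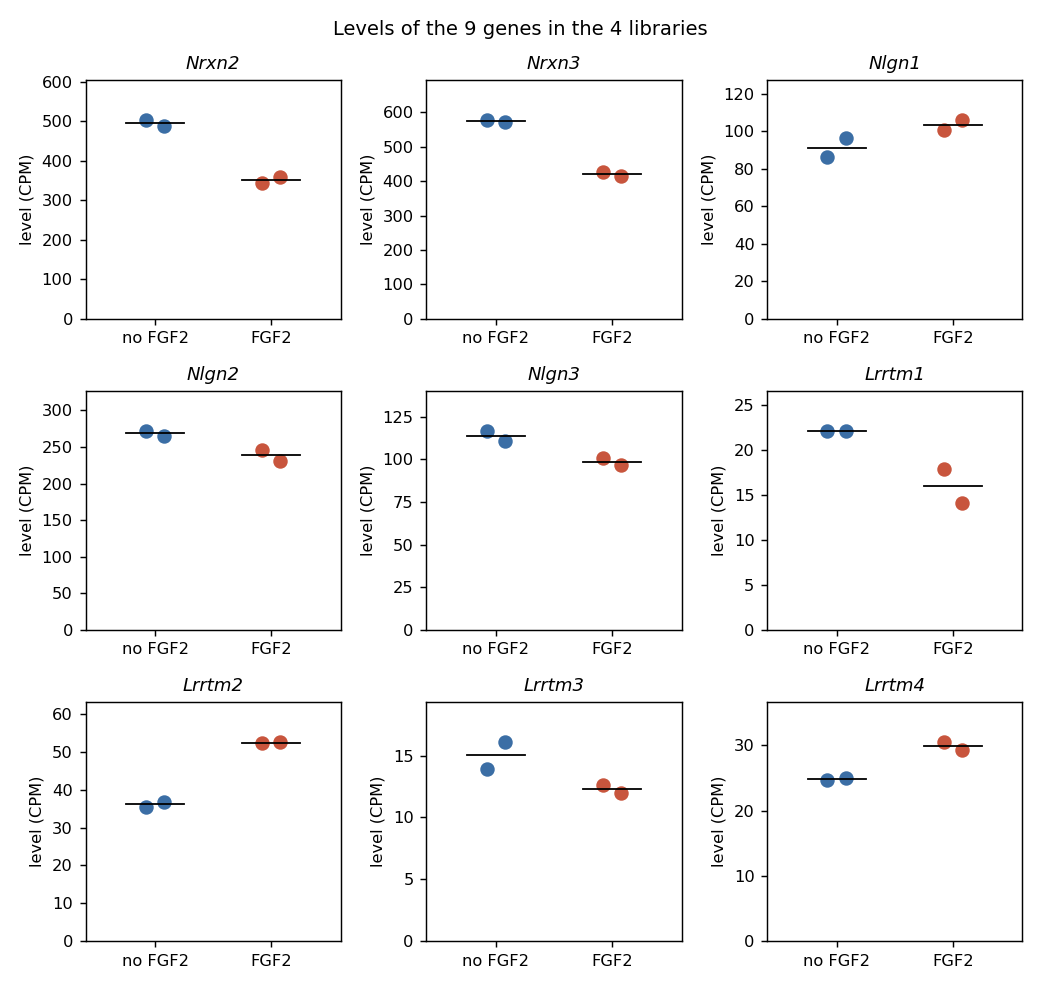
Level of each of the 9 genes in CPM (vertical axis, starting at 0 in each panel) without and with FGF2. Points are libraries and bars are group means. The groups do not overlap in any panel, and the gap is widest relative to the level for Lrrtm2, Nrxn2, Lrrtm1 and Nrxn3.

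Both presynaptic genes were abundant and lower with FGF2. Nrxn2, which encodes neurexin 2, lies on chromosome 19 of mm10 from 6418731 to 6544169 (plus strand). It had 344 and 360 CPM in replicates 1 and 2 with FGF2, against 504 and 488 CPM without. The FGF2 libraries lay below the others by more than 100 CPM. Its mean was 352 ± 11.3 CPM with FGF2 and 496 ± 10.9 CPM without. The log2 fold change was -0.50 (SE 0.039, adjusted p = 4.8e-35, edgeR), so Nrxn2 fell by 29.1%. Nrxn3, which encodes neurexin 3, lies on chromosome 12 from 88722876 to 90334935 (plus strand) and spans 1612 kb. It had 427 and 415 CPM with FGF2 and 579 and 572 CPM without. Again both FGF2 libraries were the low ones, with group means of 421 ± 8.39 and 576 ± 5.16 CPM. The log2 fold change of Nrxn3 was -0.45 (SE 0.038, adjusted p = 2.4e-31, edgeR). The 95% intervals, -0.57 to -0.42 for Nrxn2 and -0.53 to -0.38 for Nrxn3, overlapped. The gene counts pool the 18 annotated transcripts of Nrxn2 and the 13 of Nrxn3, so the long and short forms were not measured apart.

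The neuroligins moved less and not all the same way. Nlgn2, on chromosome 11 from 69823122 to 69837784 (minus strand), encodes the neuroligin of inhibitory synapses. It had 246 and 231 CPM with FGF2, against 272 and 265 CPM without. The groups were 239 ± 11.1 and 269 ± 5.31 CPM, so the gap between them was wider than the spread within either. Its log2 fold change was -0.17 (SE 0.045, adjusted p = 7.0e-04, edgeR), so Nlgn2 fell by 11.2%. Nlgn3, on chromosome X from 101299168 to 101325963 (plus strand), had 101 and 96.4 CPM with FGF2 and 117 and 111 CPM without. Both FGF2 libraries were the low ones, and the log2 fold change was -0.21 (SE 0.065, adjusted p = 0.0046, edgeR). The read-through gene Gm21986 covers 41.2% of the exonic bases of Nlgn3 on the same strand, where reads cannot be given to either gene, so the level of Nlgn3 can be an undercount. Nlgn1, on chromosome 3 from 25426215 to 26332460 (minus strand), encodes the neuroligin of excitatory synapses. It went the other way, with 100 and 106 CPM with FGF2 and 86.2 and 96.3 CPM without. The nearest libraries of the groups were closer to each other than the replicates without FGF2 were. The log2 fold change of Nlgn1 was 0.18 (SE 0.067, adjusted p = 0.020, edgeR), an increase of 13.3%. The calls of Nlgn1 and Nlgn3 were lost with DESeq2 (adjusted p = 0.22 and 0.089), and that of Nlgn1 also with upper quartile scaling (adjusted p = 0.052, edgeR). Without replicate 1 of the cultures without FGF2, the log2 fold changes were 0.10 for Nlgn1, -0.15 for Nlgn2 and -0.17 for Nlgn3, and none of them was called (adjusted p = 0.44, 0.052 and 0.13, edgeR). Without replicate 2 of the cultures with FGF2, Nlgn1 was at 0.14 and was not called (adjusted p = 0.18, edgeR).

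**Figure D2:**
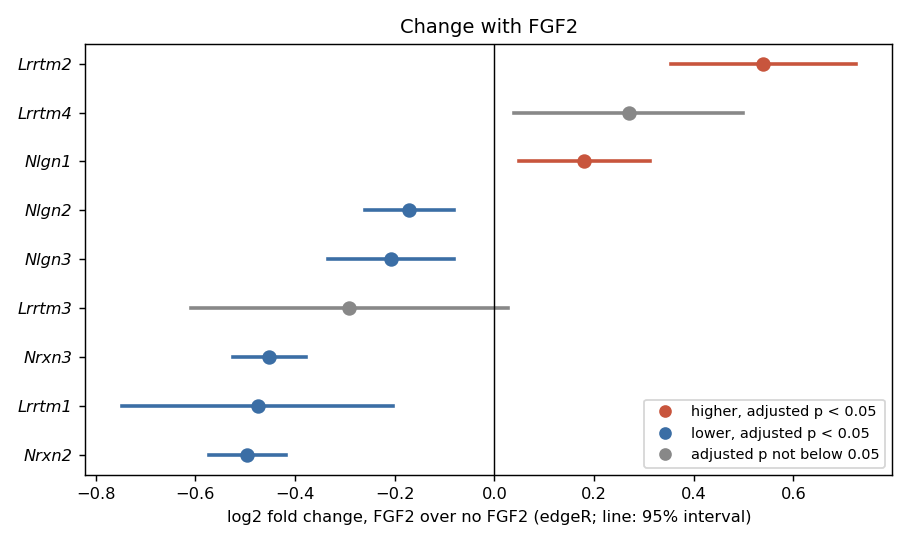
Log2 fold change of each gene, FGF2 over no FGF2 (horizontal axis), with its 95% interval from edgeR; colours mark the adjusted p-value and direction. Nrxn2, Lrrtm1 and Nrxn3 lie lowest between -0.50 and -0.45, and Lrrtm2 lies highest at 0.54.

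The sequences before some of the RefSeq start sites are shown as context for the genes (build GRCm38.p6, 250 bases before the start, 5′ to 3′ on the strand of the gene). The table of RefSeq start sites had an entry for 6 of the 9 genes. Shown are Nlgn2, which fell, Nlgn1, which rose, at the RefSeq start whose window meets no annotated exon, and the start of the shorter annotated transcripts of Nrxn3, whose reads the count of Nrxn3 includes. Nlgn2 is at chr11:69837785-69838034 (minus strand), Nlgn1 at chr3:26153987-26154236 (minus strand) and Nrxn3 at chr12:89812233-89812482 (plus strand). Capitals mark CG dinucleotides, the sites of DNA methylation.

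Nlgn2: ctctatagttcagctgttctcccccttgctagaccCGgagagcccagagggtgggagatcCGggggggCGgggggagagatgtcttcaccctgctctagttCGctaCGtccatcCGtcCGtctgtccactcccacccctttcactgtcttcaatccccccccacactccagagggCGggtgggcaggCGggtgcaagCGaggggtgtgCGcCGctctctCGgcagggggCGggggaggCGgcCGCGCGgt

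Nlgn1: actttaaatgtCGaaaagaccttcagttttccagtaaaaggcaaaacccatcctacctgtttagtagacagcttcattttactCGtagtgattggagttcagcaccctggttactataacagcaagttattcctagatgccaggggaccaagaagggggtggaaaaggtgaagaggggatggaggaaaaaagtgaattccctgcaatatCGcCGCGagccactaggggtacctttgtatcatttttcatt

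Nrxn3: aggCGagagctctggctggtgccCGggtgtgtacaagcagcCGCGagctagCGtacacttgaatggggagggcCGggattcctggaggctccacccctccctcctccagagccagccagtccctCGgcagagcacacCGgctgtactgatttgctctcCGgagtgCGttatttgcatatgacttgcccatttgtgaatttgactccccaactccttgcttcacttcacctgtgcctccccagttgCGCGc

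The window of Nlgn2 held 18 CG dinucleotides, a number reached by 21.7% of the 32851 RefSeq promoters. That of Nrxn3 held 12 (reached by 33.5%) and that of Nlgn1 held 5 (reached by 55.6%), where the median promoter held 6. The windows of a gene differed among themselves: those of the other RefSeq starts of Nrxn3 held 2 and 5 (reached by 81.2% and 55.6%), and that of the other start of Nlgn1 held 9 (reached by 40.3%). CG reads the same on both strands, and the search used no other motif. Of the genes not shown, Lrrtm1, which fell, held 5 like the shown window of Nlgn1, which rose. The window of Lrrtm3 held 6 and those of Lrrtm4 held 3 and 8. These letters describe the windows, and nothing here ties them to the levels of the genes.

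The LRRTMs held the largest rise of the 9 genes and one of the larger falls. Lrrtm2, on chromosome 18 from 35209003 to 35215024 (minus strand), encodes a postsynaptic neurexin ligand of excitatory synapses. It had 52.3 and 52.7 CPM with FGF2 and 35.4 and 36.9 CPM without. The FGF2 libraries lay well above the others, at 52.5 ± 0.291 against 36.1 ± 1.02 CPM. Its log2 fold change was 0.54 (SE 0.095, adjusted p = 8.9e-08, edgeR), an increase of 45.4%. Lrrtm1, on chromosome 6 from 77242689 to 77257791 (plus strand), encodes a paralog with the same kind of role. It had 17.8 and 14.1 CPM with FGF2 and 22.1 and 22.1 CPM without. Both FGF2 libraries were the low ones but stood apart from each other, at 15.9 ± 2.62 CPM against 22.1 ± 0.0071 CPM. Its log2 fold change was -0.48 (SE 0.14, adjusted p = 0.0024, edgeR). Without replicate 2 of the cultures with FGF2 it was -0.32 and no longer called (adjusted p = 0.12, edgeR), and with DESeq2 it was not called (adjusted p = 0.11).

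The other LRRTMs did not pass the test. Lrrtm4, on chromosome 6 from 80018877 to 80810143 (plus strand), binds neurexins and heparan sulfate proteoglycans. It had 30.6 and 29.3 CPM with FGF2 and 24.7 and 24.96 CPM without. Its libraries with FGF2 were the high ones, with a log2 fold change of 0.27 (95% interval 0.04 to 0.50, adjusted p = 0.053, edgeR). It passed narrowly when genes needed at least 10 counts in every library (adjusted p = 0.0499, edgeR). Lrrtm3, on chromosome 10 from 63928472 to 64090277 (minus strand), was the least abundant member, with 12.6 and 11.97 CPM with FGF2 and 13.9 and 16.1 CPM without. The FGF2 libraries were below the others, but the log2 fold change of -0.29 had a 95% interval from -0.61 to 0.03 (adjusted p = 0.15, edgeR). These intervals leave room for changes as large as those of the called members.

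Lrrtm1, Lrrtm2 and Lrrtm3 each lie inside an alpha-catenin gene and on its opposite strand. Alpha-catenins link cadherins to actin. Ctnna1, which holds Lrrtm2, had 224 and 238 CPM with FGF2 and 139 and 135 CPM without, and rose with a log2 fold change of 0.76 (SE 0.052, adjusted p = 4.7e-47, edgeR). Ctnna2, which holds Lrrtm1, had a log2 fold change of -0.10 (adjusted p = 0.16, edgeR). Ctnna3, which holds Lrrtm3, fell with a log2 fold change of -1.52 (adjusted p = 4.7e-06, edgeR) on 15 and 28 counts with FGF2 and 63 and 76 without. The exons of Lrrtm2 and Ctnna1 share 95 bases and those of the other pairs share 0. The strand setting of the counting is not given in the sources used here. By the values, counts were found for only 4 of 653 genes with exons at least 98% covered by another gene of their own strand, but for 154 of 457 where the covering gene was on the other strand, so reads of opposite strands were counted apart. Whether transcription of the surrounding gene had a part in the level of an LRRTM was not tested.

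To compare levels between genes, CPM were divided by the length of all annotated exons of a gene, giving CPM per kb. Without FGF2 the order of these levels was Nlgn2 (46.4 ± 0.918 CPM per kb), Nrxn3 (45.7 ± 0.409), Nrxn2 (35.9 ± 0.792), Nlgn3 (12.3 ± 0.467), Lrrtm1 (7.29 ± 0.0023), Nlgn1 (6.80 ± 0.53), Lrrtm2 (6.00 ± 0.169), Lrrtm4 (4.04 ± 0.033) and Lrrtm3 (3.54 ± 0.36). Nlgn2 and Nrxn3 overlapped, and the gaps from Lrrtm1 to Nlgn1 and from Lrrtm4 to Lrrtm3 were no larger than about the spread of the more variable gene of the pair. With FGF2 the order was Nlgn2 (41.3 ± 1.92 CPM per kb), Nrxn3 (33.4 ± 0.666), Nrxn2 (25.5 ± 0.819), Nlgn3 (10.6 ± 0.315), Lrrtm2 (8.72 ± 0.048), Nlgn1 (7.70 ± 0.306), Lrrtm1 (5.26 ± 0.865), Lrrtm4 (4.87 ± 0.144) and Lrrtm3 (2.89 ± 0.112). Lrrtm1 and Lrrtm4 overlapped there. Lrrtm2 was thus the seventh in order without FGF2 and the fifth with FGF2, and Lrrtm1 went from the fifth to the seventh. The length counts exons that a cell may not use, so these levels are low for genes with many transcript forms. The level of Nlgn3 can be an undercount here too, because its full exon length includes the 41.2% covered by Gm21986.

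Within the LRRTMs the makeup changed more than the total. The summed level of the 4 LRRTMs was 22.5 and 20.99 CPM per kb with FGF2 and 20.5 and 21.3 without, so the groups overlapped. Lrrtm2 made up 38.6% and 41.7% of this sum with FGF2 and 28.7% and 28.8% without. Lrrtm1 made up 26.1% and 22.1% with FGF2 and 35.6% and 34.3% without. The shares of Lrrtm2 and Lrrtm1 differed by 11.4 and -10.8 percentage points (exact permutation test, two-sided, p = 0.33 for each, the smallest p that 2 libraries against 2 allow). Lrrtm4 took 22.4 ± 0.444% with FGF2 and 19.4 ± 0.363% without, and Lrrtm3 took 13.3 ± 0.141% and 16.9 ± 1.27%.

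In the other families the makeup moved less. The neuroligin sum was 61.0 and 58.2 CPM per kb with FGF2 and 66.1 and 64.9 without, and Nlgn2 held 69.2 ± 0.983% of it with FGF2 and 70.9 ± 0.476% without. The share of Nlgn1 was 12.9 ± 0.934% with FGF2 and 10.4 ± 0.946% without, and that of Nlgn3 was 17.8 ± 0.049% and 18.7 ± 0.469% (exact permutation test, two-sided, p = 0.33 for each of the 3 neuroligins). Because Nlgn3 can be undercounted where Gm21986 covers it, its share can be too low and those of Nlgn1 and Nlgn2 too high. The sum of Nrxn2 and Nrxn3 was 58.8 and 59.0 CPM per kb with FGF2 and 82.4 and 80.7 without. Nrxn2 made up 43.2 ± 1.28% of it with FGF2 and 44.0 ± 0.323% without, and the libraries overlapped (exact permutation test, two-sided, p = 0.667).

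**Figure D3:**
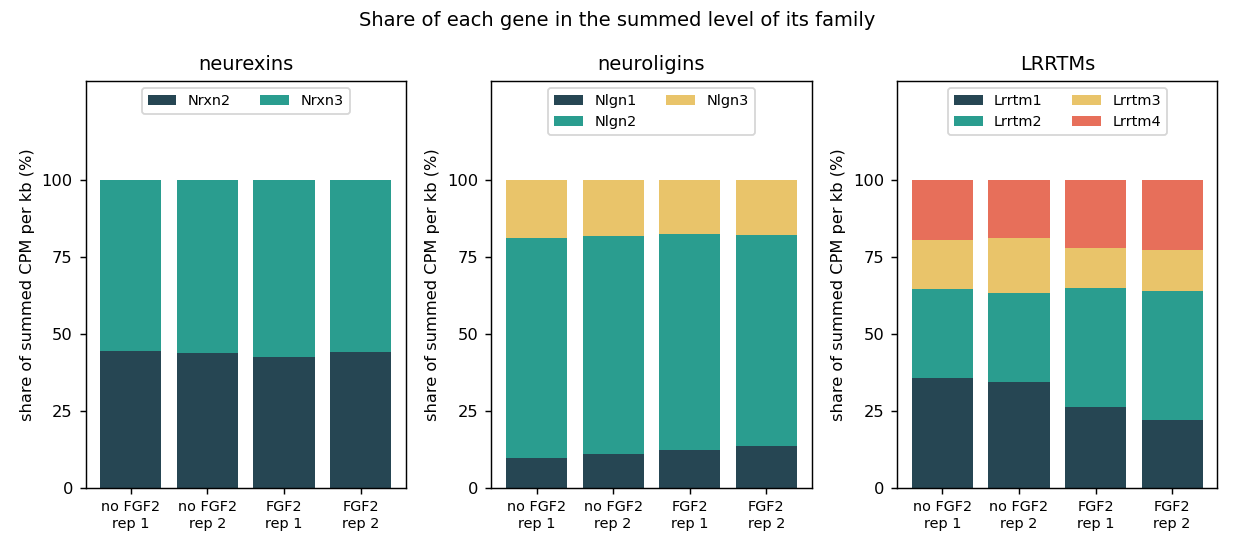
Share of each gene in the summed CPM per kb of its family (vertical axis, percent) in each of the 4 libraries (horizontal axis). The Lrrtm2 block grows from 28.7% and 28.8% without FGF2 to 38.6% and 41.7% with FGF2, while the neurexin blocks stay within 42.3% to 57.7%.

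Markers of cell types moved with FGF2 in the same libraries. Of 12 pan-neuronal markers such as Tubb3, Map2 and Rbfox3, 10 fell and 1 rose, with a median log2 fold change of -0.41. Their summed level was 3575 to 3673 CPM with FGF2 and 5146 to 5193 CPM without. Of 8 excitatory neuron markers 5 fell (median -0.39), with sums of 564 to 588 CPM against 782 to 805 CPM. Of 10 inhibitory neuron markers 10 fell (median -0.69), with sums of 685 to 692 CPM against 1146 to 1184 CPM. Of 12 astrocyte markers 11 were tested, 9 rose and 1 fell (median 0.40), with sums of 13000 to 13160 CPM against 8071 to 8107 CPM. All 6 oligodendrocyte precursor markers rose (median 0.89, sums of 878 to 889 CPM against 371 to 372 CPM), as did all 7 of the 8 myelin and oligodendrocyte markers that were tested (median 2.58, sums of 1464 to 1470 CPM against 259 to 262 CPM). The 7 microglia markers summed to 11.9 to 14.8 CPM with FGF2 and 5.79 to 6.08 CPM without, and 2 of the 3 that were tested rose. Of 8 endothelial, mural and fibroblast markers 6 were tested, 2 rose and 2 fell, with sums of 58.3 to 61.8 CPM against 47.6 to 48.5 CPM. Pdgfrb, which rose along with Rgs5, made up most of this sum (means of 47.7 CPM with FGF2 and 28.7 CPM without), whereas Col1a1 and Col1a2 fell. The endothelial marker Cldn5 had 0 counts in every library. The part of these shifts in the levels of the 9 genes was not tested.

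The 9 genes were therefore also set against the pan-neuronal markers of the same library, as the log2 CPM of the gene minus the mean log2 CPM of the 12 markers. On this scale both neurexins and Lrrtm1 overlapped between the groups. Nrxn3 stood at 1.70 and 1.70 with FGF2 and 1.69 and 1.73 without, a difference of means of -0.014. Nrxn2 differed by -0.059 and Lrrtm1 by -0.040 (exact permutation test, two-sided, p = 0.667 for Nrxn2 and p = 1 for Nrxn3 and Lrrtm1). The other 6 members were higher relative to the mean of the neuronal markers in both FGF2 libraries. Lrrtm2 stood at -1.33 and -1.28 with FGF2 and -2.34 and -2.22 without, a difference of 0.98. Lrrtm4 differed by 0.71 and Nlgn1 by 0.62. Nlgn2 differed by 0.27, Nlgn3 by 0.23 and Lrrtm3 by 0.16 (exact permutation test, two-sided, p = 0.33 for each of these 6, the smallest p that the design allows, so this test could not pass at 0.05 for any share or relative level). The nearest libraries of the groups were at -3.41 and -3.41 for Lrrtm3, closer than the replicates without FGF2. Thus Nlgn2 and Nlgn3 fell in CPM and were higher relative to the mean of the neuronal markers. The log2 fold changes of the 12 markers themselves ran from -1.10 to 0.38. Those of all members except Lrrtm2 (0.54) lay within this range, so their relative levels depend on which markers are used. Nefl, the marker at 0.38, rose more than Nlgn1 (0.18) and Lrrtm4 (0.27).

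**Figure D4:**
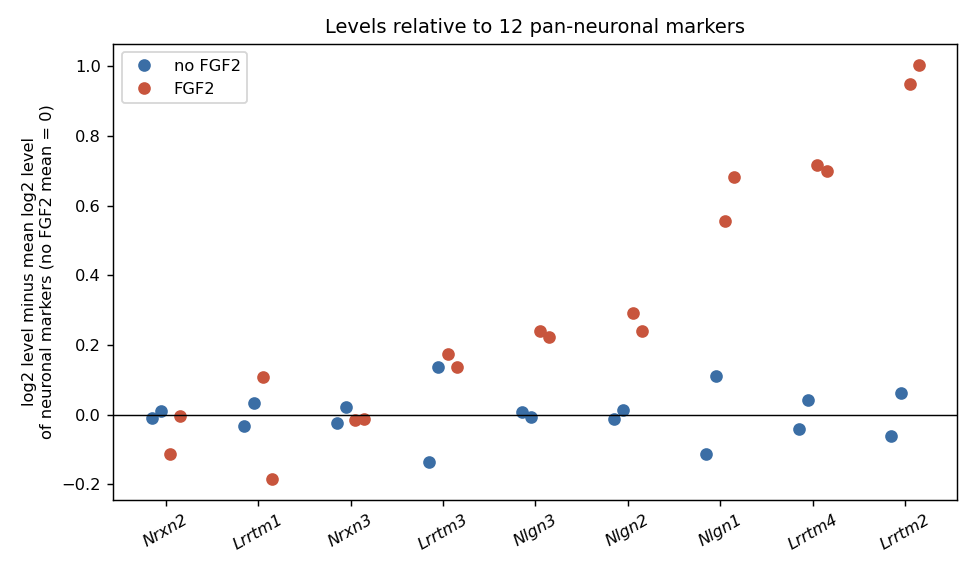
Log2 level of each gene minus the mean log2 level of 12 pan-neuronal markers in the same library (vertical axis, shifted so that the mean without FGF2 is 0), genes ordered by the difference. Points are libraries; Nrxn2, Lrrtm1 and Nrxn3 overlap between the groups, and Lrrtm2, Lrrtm4 and Nlgn1 stand highest with FGF2 (differences of 0.98, 0.71 and 0.62).

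Proteins that act with the neurexins and neuroligins were taken from lists by role. Of 18 extracellular neurexin ligands and their relatives 16 were tested, 9 fell, 3 rose and 4 were not called, with a median log2 fold change of -0.37. Cbln2, a secreted cerebellin that bridges neurexins to postsynaptic receptors, had 14.6 and 13.1 CPM with FGF2 and 5.13 and 4.79 CPM without, and rose by 1.48 on the log2 scale (SE 0.21, adjusted p = 1.2e-11, edgeR). Dag1, which encodes the neurexin ligand dystroglycan, had 544 and 528 CPM with FGF2 and 422 and 416 CPM without, with a log2 fold change of 0.36 (adjusted p = 1.9e-19, edgeR). Igsf21, a ligand of inhibitory presynaptic terminals, fell by 0.81, and Clstn2, a calsyntenin, fell by 0.68 on the log2 scale (adjusted p = 6.25e-12 and 3.5e-22, edgeR). The untested Nxph4 and C1ql2 had at most 14 and 6 counts in a library.

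Of 10 scaffolds and modulators of neuroligins 6 fell, 0 rose and 4 were not called (median -0.27). Mdga1, which binds neuroligins and keeps neurexins from them, had 120 and 128 CPM with FGF2 and 218 and 225 CPM without, a log2 fold change of -0.84 (SE 0.053, adjusted p = 1.9e-54, edgeR). Dlg3, a postsynaptic density scaffold, fell by 0.49 on the log2 scale (adjusted p = 1.7e-15, edgeR). Among 7 proteins that bind the neurexin tail, 3 fell and 1 rose (median -0.18). Sdcbp, which encodes the widely expressed adaptor syntenin, had 123 and 130 CPM with FGF2 and 71.1 and 72.4 CPM without, a log2 fold change of 0.82 (SE 0.067, adjusted p = 1.6e-32, edgeR). Apba1, a presynaptic adaptor, fell by 0.41 (adjusted p = 4.2e-16, edgeR). Lin7b, a small scaffold, fell by 0.79 on 35 to 72 counts per library (adjusted p = 0.0093, edgeR), but it was not called with DESeq2 (adjusted p = 0.16), nor without replicate 1 (adjusted p = 0.079) or replicate 2 (adjusted p = 0.0504, both edgeR) of the cultures without FGF2.

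The 3 STAR family splicing factors that regulate alternative exons of neurexins were Khdrbs1, Khdrbs2 and Khdrbs3. Khdrbs1 fell by 0.22 and Khdrbs3 by 0.29 on the log2 scale (adjusted p = 8.7e-04 and 9.6e-05, edgeR), whereas Khdrbs2 had a log2 fold change of -0.04 and was not called (adjusted p = 0.90, edgeR). Among 32 other adhesion genes of synapses 12 fell, 7 rose and 13 were not called, with a median of -0.06. Il1rap, a postsynaptic partner of receptor phosphatases that also serves interleukin receptors, had 41.3 and 46.3 CPM with FGF2 and 18.2 and 17.5 CPM without, and rose by 1.30 (SE 0.12, adjusted p = 1.1e-27, edgeR). Cadm2 rose by 0.62, Lrfn2 fell by 1.19 and the teneurin gene Tenm4 fell by 0.77 on the log2 scale (adjusted p = 1.1e-19, 1.0e-23 and 4.5e-88, edgeR). All 20 presynaptic active zone and vesicle genes fell, with log2 fold changes from -0.74 for Cplx2 to -0.25 for Ppfia2 and a median of -0.49. Syn2 fell by 0.66 on the log2 scale. The values of Nrxn2 and Nrxn3, -0.50 and -0.45, lay within this range, as did those of Lrrtm1 (-0.48) and Lrrtm3 (-0.29, not called), while those of the 3 neuroligins, Lrrtm2 and Lrrtm4 lay above it (-0.21 to 0.54).

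**Figure D5:**
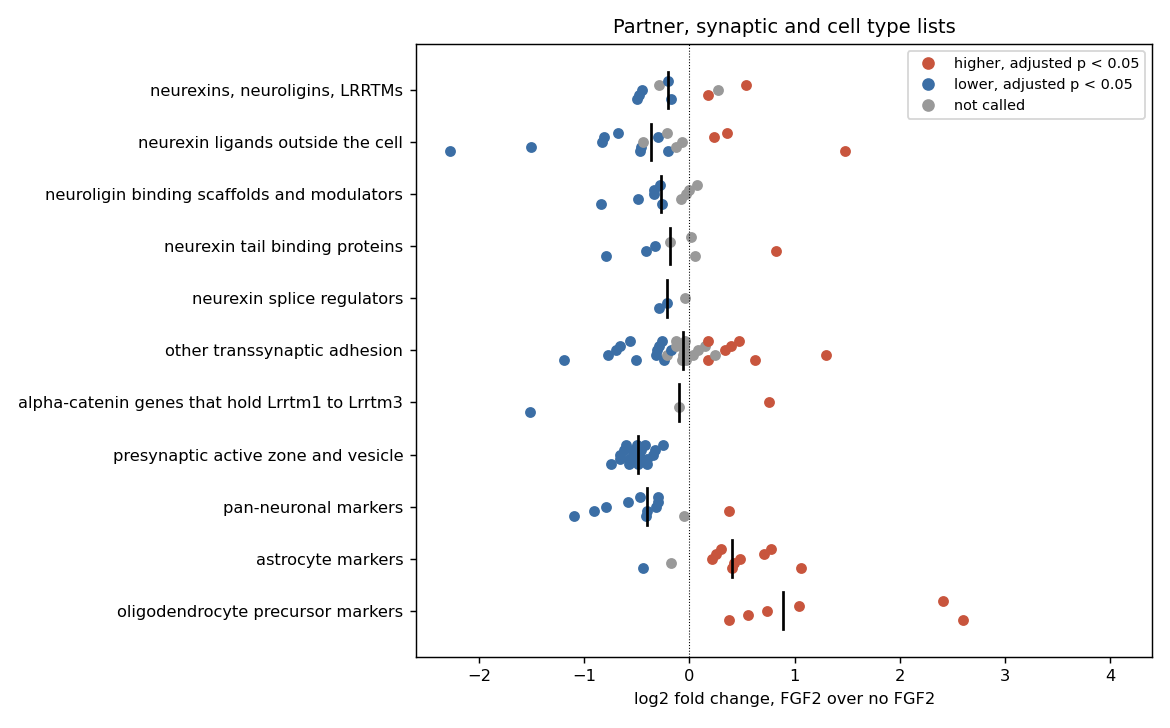
Log2 fold change of each tested gene, FGF2 over no FGF2 (horizontal axis), by list; black bars are medians and colours mark calls by edgeR. The 20 presynaptic genes lie between -0.74 and -0.25, whereas the 9 genes described here lie between -0.50 and 0.54, and the oligodendrocyte precursor genes lie above 0.

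The tested genes whose pattern over the 4 libraries was most like that of Lrrtm2, the member with the largest fold change, were Casp8ap2, Gm42047 and Pdlim5. Their Euclidean distances from Lrrtm2 in log2 CPM, centred on the mean of each gene, were 0.00595, 0.0189 and 0.0211, and their log2 fold changes were 0.55, 0.52 and 0.53. With 4 libraries such a likeness mostly follows the difference between the groups.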

How the data were processed

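Bulk RNA-seq of 4 libraries of P0 mouse PFC cultures was used. The authors mapped clean reads to mm10 with HISAT2 2.1.0, kept alignments with a mapping quality of at least 20 in Samtools, and used HTSeq 0.11.2 to count them by gene (versions per the submitters' processing notes). The deposited values are raw counts, with no normalization. The 5 tally entries, which name no gene, were left out; reads in no feature made up 43.2% to 45.9% and ambiguous reads 1.47% to 1.76% of the tallied reads. Of the 55421 genes, 55240 were matched to GENCODE M21 for symbols, mm10 coordinates and exon length.

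The main test was edgeR 4.0.16 (R 4.3.3; TMM, quasi-likelihood, robust, edgeR's expression filter by group). SE were derived from the fold change and the test statistic. DESeq2 1.42.0 and limma-voom (limma 3.58.1) were among the alternatives. The fits were tested on simulated data. Members, lists and rules were chosen with earlier results of these data known. Named in the text are all members, the alpha-catenin genes and the 3 genes most like the member with the largest change. Also named in each list were the 2 largest rises and the 2 largest falls. These were taken among called genes with non-overlapping groups and a mean of 5 CPM or more. Khdrbs2, Ppfia2, Tubb3, Map2, Rbfox3, Nefl, Cldn5, Pdgfrb, Rgs5, Col1a1, Col1a2 and untested genes were added afterwards. Differences between replicates exceeded sampling noise (chi-square per degree of freedom 2.28 with FGF2 and 1.76 without). Near-identical stretches of at least 100 bases were sought with BLAST 2.17.0, and the matches of members were to genes overlapping them.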

Additional observations from a re-analysis of the deposited data

How the results depend on the processing

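All 9 members kept their direction under every alternative. Nrxn2, Nrxn3 and Lrrtm2 were called under every alternative, and Lrrtm3 under none. The number of members called was 7 in the main analysis and 4 with DESeq2 (1 higher, 3 lower), and it lay between 4 and 7 with a library left out (1 to 2 higher, 3 to 5 lower). The higher count was 1 also with upper quartile scaling and with an adjusted p-value threshold of 0.01, where Nlgn1 was lost. DESeq2 called 4007 genes in all (2068 higher, 1939 lower) in place of 6948. Fits that left out a library assumed that the lone library of its group varied like the others. The median log2 fold change of the members lay between -0.24 and -0.17 with a library left out. With the replicate number as a block the members called were 7 of 9 and all genes called 6816, and no call of a named gene changed. The deviations of same-numbered libraries from their group means did not correlate (r = 0.0046 over 12645 genes), so the numbers were not taken as pairs.

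Relative to the presynaptic genes in place of the pan-neuronal markers, the differences of Nrxn2, Nrxn3 and Lrrtm1 turned from slightly below 0 to 0.0075, 0.053 and 0.027. With a library left out, the difference of Nrxn3 from the pan-neuronal markers lay between -0.037 and 0.0096 and that of Lrrtm1 between -0.19 and 0.11. The share of Nrxn2 differed by -1.67 to 0.135 percentage points with a library left out, and that of Nrxn3 by -0.135 to 1.67. The cause of these shifts was not tested. Lrrtm1, Lrrtm3 and Lrrtm4 had the fewest counts of the members, 115 to 289 per library, and the part of depth in their calls was not tested.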

Other observations

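Some secreted neurexin ligands at low counts also differed between the cultures, and they were picked after their values had been seen. Cbln4, a relative of Cbln2, was counted 12 and 3 times with FGF2, against 45 and 38 times without, and fell by 2.27 on the log2 scale (adjusted p = 5.1e-06, edgeR), whereas Cbln2 rose. Nxph2 and Nxph3, neurexophilins that bind the long neurexin forms, fell by 1.51 and 0.83 on the log2 scale (adjusted p = 3.9e-04 and 0.030, edgeR). Their counts were 8 and 20 against 49 and 41 for Nxph2, and 17 and 32 against 43 and 55 for Nxph3, with FGF2 given first. Nxph1, at 232 to 329 counts per library, had a log2 fold change of -0.21 and was not called (adjusted p = 0.14, edgeR). The difference between members of these families was not tested.

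The scaffolds of inhibitory and excitatory synapses did not share a call. Gphn, which encodes the inhibitory scaffold gephyrin, had 76.7 and 74.1 CPM with FGF2 and 70.3 and 81.2 CPM without, and was not called (log2 fold change -0.01, adjusted p = 0.95, edgeR). Dlg4, which encodes the excitatory scaffold PSD-95, had 351 and 344 CPM with FGF2 and 448 and 431 CPM without, and fell by 0.34 on the log2 scale (adjusted p = 3.1e-16, edgeR). Among the neuroligins, Nlgn2 of inhibitory synapses fell and Nlgn1 of excitatory synapses rose. The call of Nlgn1 was lost with DESeq2 (adjusted p = 0.22). Relative to the mean of the neuronal markers, Nlgn1 and Nlgn2 were each higher with FGF2. Both pairs were set side by side after their values had been seen, and the difference between their changes was not tested.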
